A study of Mus musculus with 8 samples.

Results

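The nuclear-encoded genes of oxidative phosphorylation were followed in mouse liver with and without the RNA-binding protein ZFP36L1. Members were chosen by symbol alone: every row of the count table named for an NADH dehydrogenase subunit or assembly factor (Nduf), a succinate dehydrogenase subunit (Sdh), a cytochrome bc1 subunit (Uqcr, Cyc1), a cytochrome c oxidase subunit (Cox4 to Cox8) or an ATP synthase subunit (Atp5), together with Cycs. Symbols marked as pseudogenes (-ps) were left out, which removed 2 rows. The rule found 97 of 25239 genes. Liver RNA of adult males was sequenced in 4 control and 4 knockout libraries. Control animals had both Zfp36l1 alleles flanked by loxP sites (fl/fl) and no Cre is named for them, although their genotype field reads WT. Knockout animals were fl/fl with Alb-Cre+, a Cre recombinase under the albumin promoter, a hepatocyte driver, so that other liver cells are not its target. The labels give no age in weeks, no treatment and no statement that each library came from its own animal, and p-values here therefore reflect library-to-library spread only.

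Oxidative phosphorylation takes place in the inner mitochondrial membrane. Complex I (NADH dehydrogenase) and complex II (succinate dehydrogenase) pass electrons to coenzyme Q, complex III (cytochrome bc1) passes them to cytochrome c, and complex IV (cytochrome c oxidase) passes them to oxygen. Complexes I, III and IV pump protons, and complex V (ATP synthase) lets them flow back to make ATP. Hepatocytes are rich in mitochondria and use the chain for fatty acid oxidation, gluconeogenesis and urea synthesis. Most subunits are encoded in the nucleus. Of the 13 subunits encoded by mitochondrial DNA, 0 have a row in the count table, and they were not analysed here. ZFP36L1 binds AU-rich elements, for which UAUUUAU is the core heptamer, in the 3′ untranslated region (UTR) of mRNAs and promotes their decay.

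Library totals ranged from 104842873 to 140582588 counts, and 3 counts in a library stand for 0.0215 to 0.0277 CPM (normalised read counts per library size, scaled with the TMM method of edgeR), a floor that covers counting error only. Zfp36l1 itself had 212 to 324 CPM in control and 57.9 to 76.9 CPM in knockout libraries, or 25.1% of the control mean, so the labels match the targeted transcript (edgeR's quasi-likelihood test, adjusted p = 0.000309; exact two-sided permutation test p = 0.0286, the smallest that the 70 assignments allow). Members took 0.781% to 0.942% of all counts. Hepatocyte markers (Alb, Apoa1, Ttr, Serpina1a, Tat and Cps1) summed to 69588 to 75171 CPM in control and 81413 to 91957 CPM in knockout libraries. These sums did not overlap, although 0 of the 6 passed the test. Of the other marker lists, cholangiocyte markers had 1 of 5 lower (Sox9), and summed to 42.0 to 56.9 CPM against 30.2 to 44.7 CPM. In the lists for Kupffer, endothelial, stellate and lymphoid cells, neutrophils, erythroid cells, skeletal muscle, adipocytes and pancreas, 0 tested markers changed. Only 2 of 4 markers were tested for neutrophils and 2 of 4 for erythroid cells. For skeletal muscle 1 of 6 was tested, for adipocytes 1 of 5 and for pancreas 1 of 5. The neutrophil sum reached 3.77 CPM in control and 40.2 CPM in knockout libraries. Ucp1, Lep and Ckm were at 0 in all 8 libraries. The haemoglobin genes Hbb-bs and Hba-a1, which have near-identical copies, are also listed at 0, while the erythroid list summed to 98.1 to 134 CPM in control and 79.2 to 121 CPM in knockout libraries. The part of cell makeup in the results was not tested, and in whole liver fewer cells of a type and less RNA per cell cannot be told apart.

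In TPM (counts per length, scaled to the same sum in each library; counts divided by the deposited gene length), the highest levels belonged to the F1 head of ATP synthase. Averaged over both groups, Atp5b, the catalytic beta subunit of the F1 head, stood at 1672 TPM and Atp5a1, the alpha subunit, at 1124 TPM. Ndufa4, named for complex I but known as a subunit of complex IV and counted there, had 655 TPM, and Cox6a1 had 519.8 TPM. In complex II the flavoprotein gene Sdha had 598 TPM and the membrane anchor gene Sdhd 290.0 TPM. The highest members of complex III were Uqcrc2, a core protein gene, at 329 TPM and Uqcrb at 308 TPM. Complex I genes were lower, with a median of 97.4 TPM over 35 tested genes, among them Ndufa11 at 14.2 TPM and Ndufb9 at 268 TPM. Medians were 226 TPM for complex III, 239 TPM for complex IV and 234 TPM for complex V. The 8 assembly factors of complex I, which build the complex but are not part of it, had a median of 14.9 TPM and a highest level of 31.7 TPM (Ndufaf1).

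**Figure D1:**
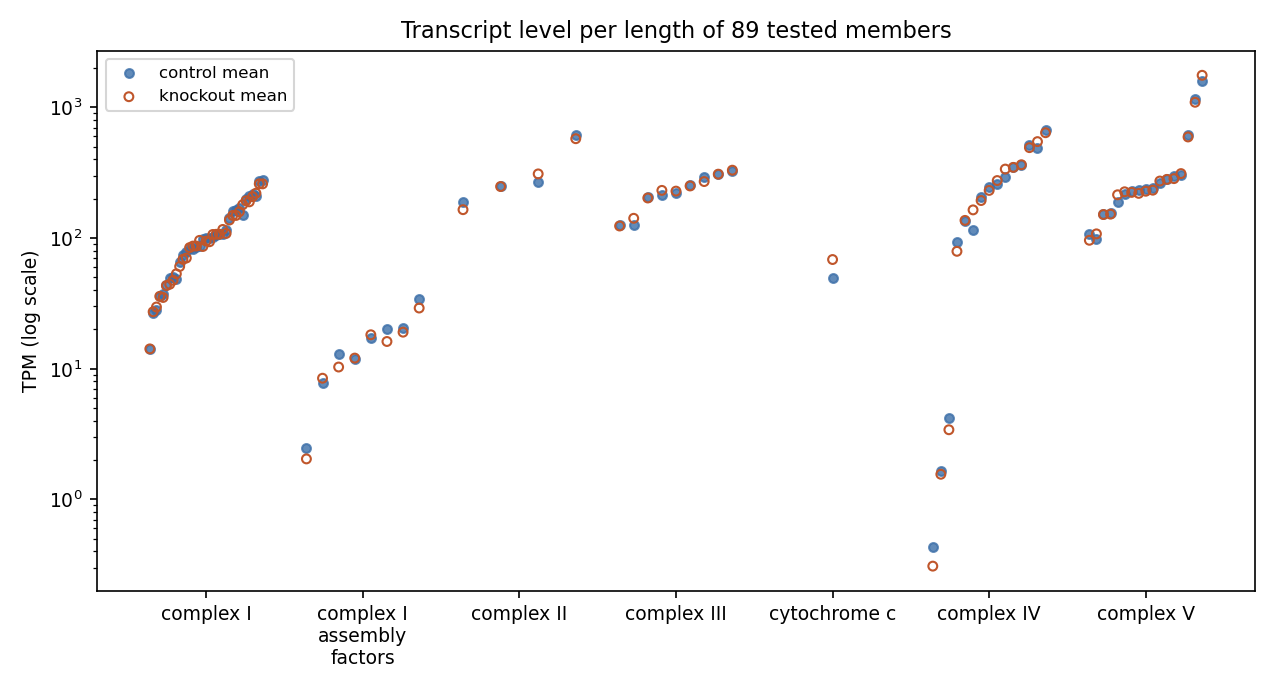
Mean TPM (log scale) of each of the 89 tested members in control (filled) and knockout (open) libraries, grouped by complex, n = 4 per group. Filled and open points lie visibly apart for Cycs, Cox7a2 and some genes of low level, and the assembly factors (median 14.9 TPM) sit below all subunits but the tissue isoforms of complex IV and the lowest of complex I.

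Isoforms of other tissues were nearly silent. Cox6a2 and Cox8b, subunit isoforms of heart and skeletal muscle, had at most 6 and 4 counts in any library, and Cox4i2, the isoform of lung, at most 8. The testis isoforms Cox7b2 and Cox8c were at 0 in all 8 libraries. The muscle isoform Cox7a1 had 0.629 ± 0.140 CPM in control and 0.549 ± 0.183 CPM in knockout libraries (SD, n = 4 each). Cox6b2, another testis isoform, had 0.109 ± 0.0313 and 0.0833 ± 0.0103 CPM, and Ndufa4l2, a hypoxia-induced paralog of Ndufa4, 0.661 ± 0.111 and 0.655 ± 0.206 CPM. Ndufs5, a subunit that every complex I holds, is listed at 0 in all 8 libraries, while the row Ndufs5-ps has 39 to 78 counts. How reads shared by near-identical copies were counted is not given in the sources used here, so the levels of members with close copies, Cycs among them, are uncertain in the same way. A filter on low counts left 89 members for testing. The other 8 were Cox4i2, Cox6a2, Cox7b2, Cox8b, Cox8c, Ndufs5 and the copies Ndufa11b and Ndufb4c.

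The main comparison asked whether loss of ZFP36L1 in hepatocytes was accompanied by a change in these transcripts. Of the 89 tested members, 2 rose (Cycs and Cox7a2) and 0 fell at an adjusted p under 0.05 (edgeR's quasi-likelihood test, Benjamini-Hochberg adjustment over 14861 genes). Among all tested genes 5.39% changed, 3.51% upward and 1.88% downward, so the members' share of 2.25% was below that of the whole table. Under total counts the direction over all genes turned, with 392 higher and 1338 lower against 521 and 280. At an unadjusted p under 0.05 there were 9 higher and 2 lower members, or 11 of 89, against 21.5% of all tested genes. The median log2 fold change of knockout over control was 0.06 for the members and −0.01 for all tested genes. Scaling by total counts moved all tested genes to a median of −0.12 and the members to −0.05, so the sign of the members' median flipped. Such scaling shifts every gene by about the same amount, so it cannot test the gap between the members and all genes. Without control replicate 3 the members' median was −0.015, below the −0.0058 of all tested genes. Under total counts the medians of complexes I to V flipped too, from 0.03, 0.03, 0.08, 0.02 and 0.06 to −0.079, −0.079, −0.028, −0.090 and −0.054. Without control replicate 3 the medians of complexes I to V were −0.031, 0.012, −0.0039, −0.030 and −0.0071. Tallies of values above or below 0 in each complex therefore hold only for the TMM scaling with all 8 libraries. Standard errors (SE) of the members' log2 fold changes ran from 0.06 to 0.34, with a median of 0.11. The 95% interval lay within a 1.5-fold change in either direction for 82 of the 89.

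**Figure D2:**
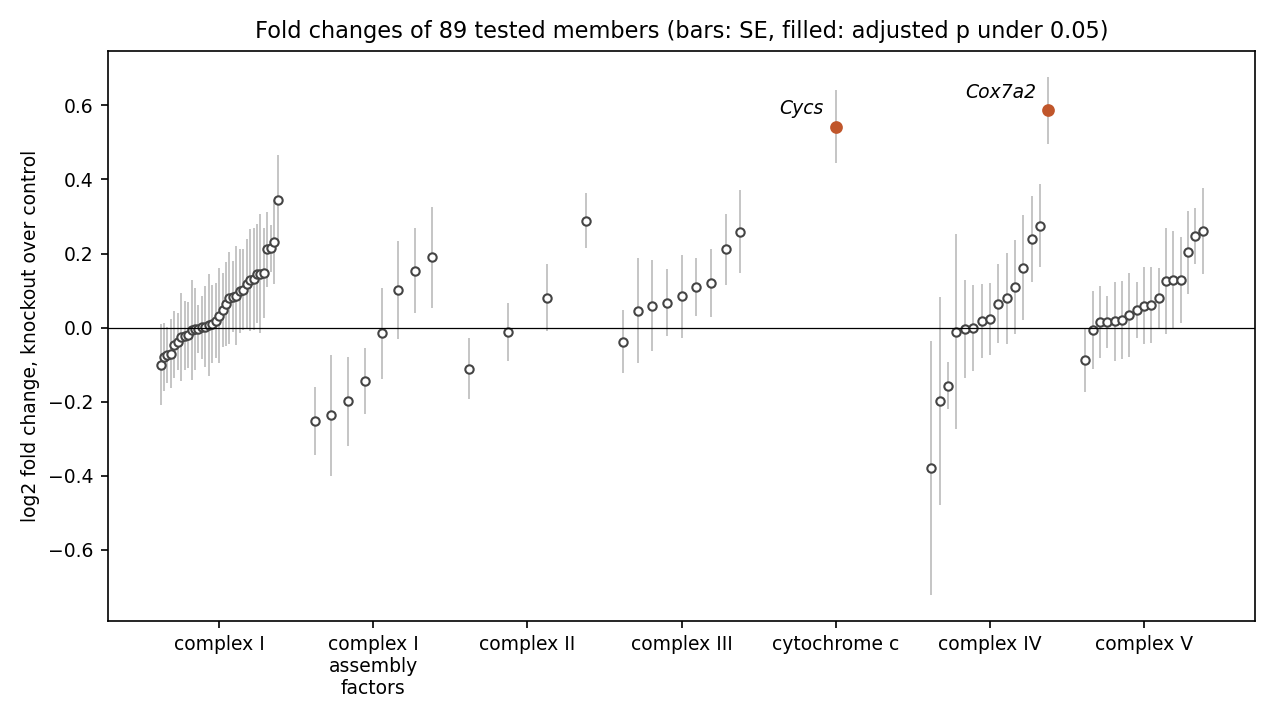
Log2 fold change of knockout over control (vertical axis, bars show SE) for the 89 tested members by complex, n = 4 per group. Filled points passed the test: Cycs (0.54) and Cox7a2 (0.59) stand above all other members, whose highest value is 0.34 (Ndufa8).

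Cycs encodes cytochrome c, the soluble carrier between complexes III and IV that also triggers apoptosis when released from mitochondria. It had 74.4, 67.4, 56.0 and 62.4 CPM in controls 1 to 4 and 95.6, 105, 93.2 and 85.0 CPM in knockouts 1 to 4. Every knockout library was above every control library. The means were 65.0 ± 7.77 and 94.7 ± 8.22 CPM (SD, n = 4), a log2 fold change of 0.54 (SE 0.10, edgeR adjusted p = 0.0174). Without knockout replicate 1 the adjusted p was 0.0524, and without knockout replicate 3 it was 0.0545, with log2 fold changes of 0.54 and 0.55.

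Cox7a2 encodes the ubiquitous form of subunit VIIa of cytochrome c oxidase, a small subunit of the enzyme. It had 40.1, 36.7, 30.2 and 37.5 CPM in controls 1 to 4 and 53.6, 57.8, 51.3 and 54.4 CPM in knockouts 1 to 4. The groups did not overlap. Means were 36.1 ± 4.23 and 54.3 ± 2.69 CPM (SD, n = 4), a log2 fold change of 0.59 (SE 0.09, edgeR adjusted p = 0.00921), and the call held when any single library was left out (adjusted p up to 0.0310). Of its paralogs, Cox7a1 is described above. Cox7a2l, which encodes a factor that joins complexes III and IV, had 40.8 to 46.7 CPM in control and 38.9 to 41.1 CPM in knockout libraries (log2 fold change −0.16, SE 0.06, edgeR adjusted p = 0.184, and 0.0289 under total counts, where it was −0.27).

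**Figure D3:**
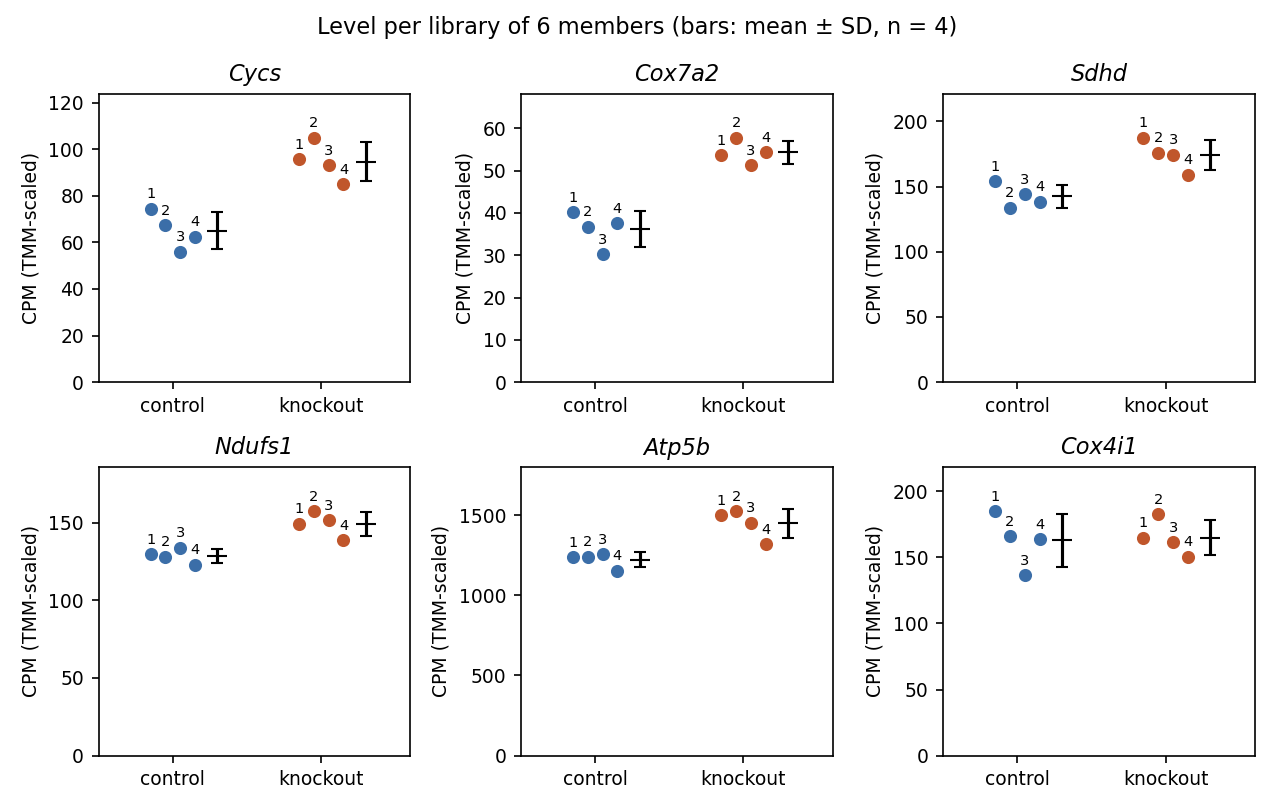
CPM of 6 members in each library (numbered points), with mean ± SD beside them, n = 4 per group; each vertical axis starts at 0. The groups do not overlap for Cycs, Cox7a2, Sdhd, Ndufs1 and Atp5b, and overlap for Cox4i1.

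Cycs and Cox7a2 were also 2 of the few members whose 3′ UTR holds the heptamer UAUUUAU. Searched on the transcript strand in the longest annotated 3′ UTR (GENCODE M21, on mm10), it was found in 7 of 87 tested members with a 3′ UTR (8.05%) and in 29.6% of 13695 tested genes. The members' 3′ UTRs were shorter, with a median of 197 bases against 1143. The other 5 were Ndufb8, Ndufs4, Ndufv2, Sdhc and Uqcrc2, with log2 fold changes of 0.06, 0.21, −0.02, −0.11 and 0.11, and 0 of the 5 passed the test. Of these 5, Ndufv2 has 3 sites and Sdhc 2, as many as Cycs or more, while Ndufb8, Ndufs4 and Uqcrc2 have 1 each. The sites are shown for the 2 genes that rose and for 2 with 1 site each that did not pass. They are in RNA letters with the heptamer in capitals. Cycs has 2 sites in a 3′ UTR of 2674 bases, at chr6:50565208-50565236 and chr6:50562797-50562825, and Cox7a2 has 1 in 186 bases, at chr9:79755437-79755465. The Ndufs4 site lies at chr13:114288692-114288720 and the Uqcrc2 site at chr7:120659299-120659327 (mm10, minus strand for all but Uqcrc2).
Cycs, first site: uuccacugccuUAUUUAUuacaaaacaaa
Cycs, second site: aauggcugcugUAUUUAUggcauugaccu
Cox7a2: uuggggaucaaUAUUUAUugauguguauu
Ndufs4: cagcugugcacUAUUUAUaguccauggau
Uqcrc2: cagucagcaagUAUUUAUuaaaugcuuua
In Cycs the first heptamer starts at base 12 of the 3′ UTR and the second at base 2423, and in Cox7a2 it starts at base 93. A match of letters is a description and does not show that the protein binds there. Over all tested genes the median log2 fold change was 0.06 with the heptamer and −0.03 without it, and over the members 0.11 and 0.05. The 7 members with it include Cycs and Cox7a2, which were picked out by their rise. Genes with and without the heptamer were not matched for 3′ UTR length, and these differences were not tested.

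Complex I contributed 38 members, 7 core subunits and 31 others, and 35 were tested. The 31 are counted as accessory subunits and include the untested copies Ndufa11b and Ndufb4c. None of them passed the edgeR test in either direction. The median log2 fold change of complex I was 0.03 (−0.031 without control replicate 3 and −0.079 under total counts). Ndufs1, the largest core subunit, which carries iron-sulfur clusters, had 130, 128, 134 and 123 CPM in control and 149, 157, 151 and 139 CPM in knockout libraries. Its groups did not overlap, although the log2 fold change was small (0.21, SE 0.06, edgeR adjusted p = 0.0835), and its exons overlap those of Eef1b2 and Ino80dos on the opposite strand, whose reads cannot be told apart without a stated strand setting. The other 6 core subunits had values below 0, the lowest −0.10 (Ndufs7). Ndufv1, which binds NADH, had 140.3 ± 8.16 and 133 ± 10.3 CPM (SD, n = 4; log2 fold change −0.07, adjusted p = 0.616 by edgeR). Among 28 tested accessory subunits 22 had values above 0, with a median of 0.07 (−0.014 without control replicate 3 and −0.040 under total counts). The highest was Ndufa8, a small intermembrane-space subunit, with 37.8 to 56.4 CPM in control and 57.3 to 67.3 CPM in knockout libraries (0.34, SE 0.12, edgeR adjusted p = 0.137). Its groups did not overlap either.

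Of the 8 assembly factors of complex I, 5 had values below 0 and the median was −0.08, with 0 changed by edgeR. Ndufaf7, a methyltransferase, had 13.0, 12.5, 10.98 and 13.1 CPM in control and 10.1, 11.5, 10.6 and 9.40 CPM in knockout libraries. The groups overlapped only through control library 3, and the log2 fold change was −0.25 (SE 0.09, edgeR adjusted p = 0.146, and 0.0321 under total counts and 0.0447 with limma-voom). Ndufaf5 was the 1 member whose knockout libraries (2.26 to 2.64 CPM) all lay below the controls (2.66 to 3.08 CPM), with adjusted p = 0.372 by edgeR. Ndufaf3 had the highest value, 0.19.

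All 4 complex II genes were tested. Sdhd, which encodes the small membrane anchor that binds coenzyme Q, had 154, 134, 144 and 139 CPM in control and 188, 176, 175 and 159 CPM in knockout libraries. The knockout libraries were all above the controls. The log2 fold change of 0.29 (SE 0.07) missed the threshold in the edgeR test without a block (adjusted p = 0.0536) and passed with the replicate number as a block (adjusted p = 0.0415). With the block 3 members rose, Sdhd beside Cycs and Cox7a2, and 4.39% of all tested genes did. The other 3 subunits had smaller values and overlapping groups. Sdha had 670 to 750 CPM in control and 645 to 767 CPM in knockout libraries (−0.01, 95% interval −0.19 to 0.16). Sdhb, the iron-sulfur subunit, had 0.08 (SE 0.09), and Sdhc, the second anchor, −0.11 (SE 0.08).

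In complex III, 8 of 9 members had values above 0, with a median of 0.08 (−0.0039 without control replicate 3 and −0.028 under total counts), and 0 passed the edgeR test. The Rieske iron-sulfur protein gene Uqcrfs1 had 107 to 129 CPM in control and 114 to 150.1 CPM in knockout libraries (log2 fold change 0.21, SE 0.09, edgeR adjusted p = 0.236). Cyc1, the haem-bearing cytochrome c1, had 140.1 ± 14.5 and 152 ± 12.8 CPM (SD, n = 4), a log2 fold change of 0.12, against 0.54 for Cycs, the carrier it reduces. The core protein gene Uqcrc1 had −0.04 (SE 0.09), Uqcrc2 had 0.11 (SE 0.08) and Uqcrb 0.08 (SE 0.11). The highest was Uqcr10, a small subunit, at 0.26 (SE 0.11, edgeR adjusted p = 0.219).

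Of 20 complex IV members, counted with Ndufa4, Ndufa4l2 and Cox7a2l, 15 were tested and Cox7a2 alone passed (edgeR). The median was 0.02 (−0.030 without control replicate 3 and −0.090 under total counts). Cox4i1, the main regulatory subunit, had 185, 166, 136 and 164 CPM in control and 165, 182, 161 and 150.3 CPM in knockout libraries, with overlapping groups (log2 fold change 0.02, 95% interval −0.20 to 0.24). Cox5a, which sits beside it on the matrix side, had 58.8 ± 9.51 and 58.8 ± 4.95 CPM (SD, n = 4). Ndufa4 had 0.02 (SE 0.10). Cox8a had 55.1 to 78.3 and 70.2 to 90.4 CPM (0.28, SE 0.11, edgeR adjusted p = 0.192), and Cox6a1 0.24 (SE 0.12, adjusted p = 0.272). Cox6b2 was the lowest member of all, at −0.38 (SE 0.34), from the low levels given above.

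In complex V, 15 of 17 members had values above 0, with a median of 0.06 (−0.0071 without control replicate 3 and −0.054 under total counts), and 0 passed the edgeR test. Atp5b had 1238, 1239.6, 1256 and 1153 CPM in control and 1498, 1525, 1454 and 1319.9 CPM in knockout libraries. The groups did not overlap (log2 fold change 0.25, SE 0.08, edgeR adjusted p = 0.0914). Atp5a1, its partner in the F1 head, had 1113 to 1208 CPM in control and 1089.8 to 1223 CPM in knockout libraries, with full overlap (0.01, 95% interval −0.14 to 0.17). The 3 genes for the c subunit of the membrane rotor had 0.06 (Atp5g1), −0.09 (Atp5g2, the lowest of the complex) and 0.02 (Atp5g3). Atp5md, a small membrane subunit, had the highest value, 0.26 (SE 0.12). Across all complexes the groups did not overlap for 7 members that were higher in the knockout (Cycs, Cox7a2, Sdhd, Ndufs1, Atp5b, Ndufa8 and Ndufc1), or 7.87%, against 7.17% of all tested genes. They did not overlap for 1 lower member, or 1.12%, against 7.93% of all tested genes.

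The summed level of the members, led by Atp5b, was 9122, 8424, 7643 and 8185 CPM in controls 1 to 4 and 9017, 9449.97, 8884 and 8123 CPM in knockouts 1 to 4. Control library 1 was as high as the knockout libraries, and knockout library 4 was below 3 of the 4 controls. Means were 8343 ± 613 and 8868 ± 553 CPM (SD, n = 4), a ratio of 1.06, or 0.983 under total counts. By complex the ratio was 1.03 for complex I, 0.987 for its assembly factors, 1.02 for complex II, 1.06 for complex III and 1.08 for complexes IV and V. Under total counts these ratios were 0.954, 0.913, 0.945, 0.983, 0.995 and 0.999. Within same-numbered pairs the ratio for all members was 0.988, 1.12, 1.16 and 0.992 for numbers 1 to 4, so it was above 1 in 2 of the 4 pairs.

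Members of different complexes were high or low together within single libraries of each genotype. Control library 1 held the highest control level of 78 of the 89 tested members, and control library 3 the lowest of 79. Knockout library 2 held the highest knockout level of 76 members, and knockout library 4 the lowest of 75. The same was not counted for all tested genes. Short genes in general also stood high in control library 1 and low in control library 3, as described below. Relative to the control mean, the median member stood at log2 values of 0.20, 0.02, −0.27 and 0.02 in controls 1 to 4 and 0.08, 0.17, 0.06 and −0.04 in knockouts 1 to 4. The range within the controls was thus wider than the distance between the group medians.

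**Figure D4:**
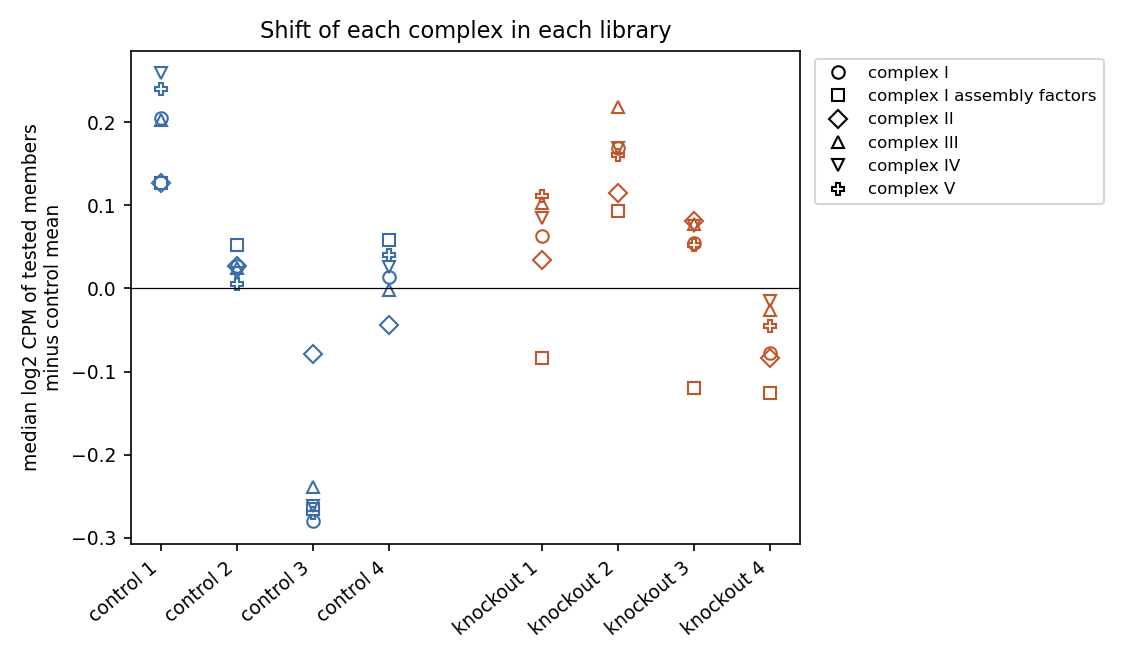
Median log2 CPM of the tested members of each complex minus its control mean (vertical axis) in each of the 8 libraries; cytochrome c, a single gene, is not drawn. All complexes are high in control 1 and low in control 3, where complex II (−0.08) lies closest to 0.

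The size of this shift varied with gene length. The members' median length was 868 bases against 2984 for all tested genes. In control library 1 the 52 members shorter than 1000 bases stood at a median of 0.21 above their mean over the 8 libraries and the 37 longer ones at 0.13. In control library 3 these values were −0.34 and −0.21. Across the 89 members Pearson's r between log2 length and the deviation was −0.50 in control library 1 and 0.40 in control library 3, and lay between −0.18 and 0.12 in the others (members share the library and its scaling, so this is a description). Short genes in general shifted the same way. The 1055 tested genes shorter than 1000 bases stood at 0.18 and −0.23 in the same 2 libraries, while the longer genes stood at −0.0016 and 0.012. Without control replicate 3 the members' median log2 fold change was −0.015 (−0.0058 for all tested genes), and without control replicate 1 it was 0.13 (−0.0067 for all tested genes). Cycs and Cox7a2 passed without either of these libraries.

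**Figure D5:**
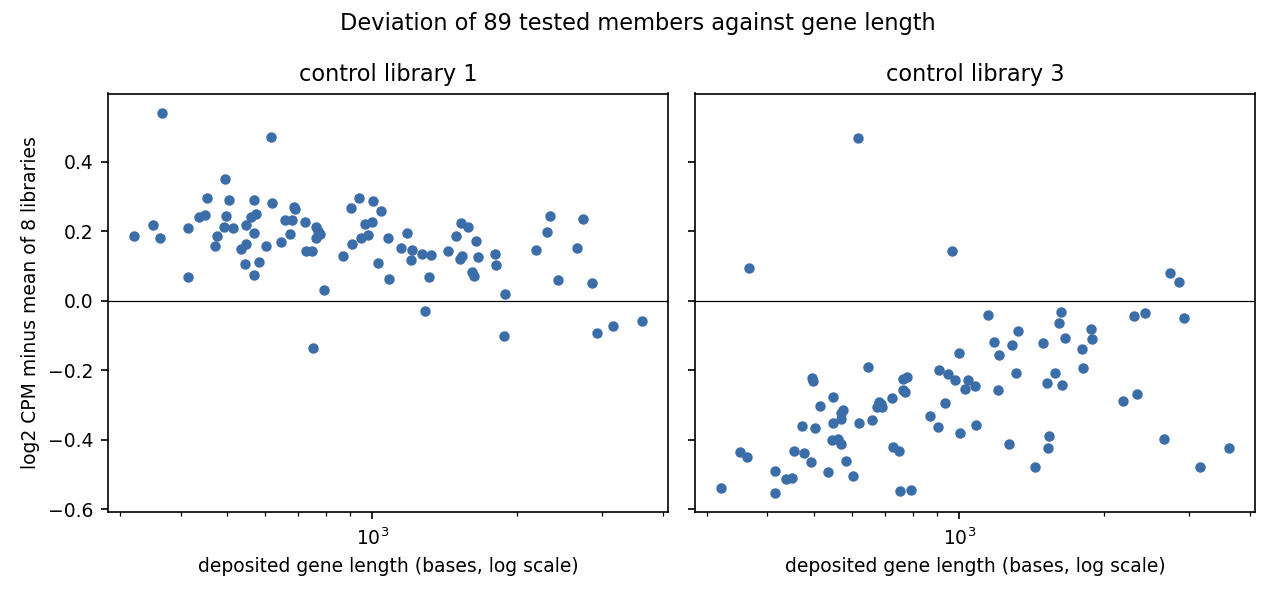
Deviation of log2 CPM from the mean of the 8 libraries (vertical axis) against deposited gene length in bases (log scale) for the 89 tested members in control libraries 1 and 3. In control 1 most points lie above 0 and decline with length (r = −0.50), and in control 3 most lie below 0 and rise with length (r = 0.40).

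With each library's length trend removed by a smooth curve over all genes, an alternative chosen after seeing the data, 11 members rose and 0 fell in edgeR, or 12.4% of the 89, against 4.92% of all tested genes higher and 3.1% lower. All tested genes are longer than the members (medians of 2984 and 868 bases), and the share among short genes was not counted. Beside the carrier gene Cycs, the 11 held members of every complex: Ndufs1, Ndufa8 and Ndufc1 of complex I, Sdhd of complex II and Uqcr10 of complex III. Cox7a2, Cox8a and Cox6a1 came from the oxidase, and Atp5md and Atp5mpl from ATP synthase. In this fit the log2 fold changes of the 11 lay between 0.23 and 0.61. For Cox7a2 the SE fell to 0.05 (log2 fold change 0.61, edgeR adjusted p = 0.000596). For Ndufa8 the SE fell from 0.12 to 0.06 (log2 fold change 0.37, adjusted p = 0.0126). Cycs, a long transcript of 3154 bases, had 0.55 (SE 0.10, adjusted p = 0.0134). The members' median was 0.07 against 0.06 before, so the correction changed the errors more than the values. It also removes any length trend that differs between the groups, and its tests do not count the smoothing, so their p-values may be too small.

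Genes that serve the chain without belonging to the symbol rule were read from separate lists, beside 3.51% of all tested genes called higher and 1.88% called lower. Of 46 tested assembly factors 2 rose and 0 fell in edgeR, with a median of −0.03. They were Cox17 and Cox19, which encode small copper-handling proteins for cytochrome c oxidase. Cox17 had 10.3, 10.03, 7.15 and 9.16 CPM in control and 13.1, 14.4, 13.6 and 13.6 CPM in knockout libraries (log2 fold change 0.58, SE 0.11, edgeR adjusted p = 0.0235). Cox19 had 17.8, 17.0, 13.4 and 17.9 CPM against 22.9, 31.1, 25.99 and 22.1 CPM (0.63, SE 0.13, edgeR adjusted p = 0.0263). For both genes every knockout library was above every control library. The calls were lost in 3 of 8 fits that each left out a library for Cox17 (knockout replicates 1, 2 and 3; up to 0.0683 by edgeR) and in 5 for Cox19 (also control replicates 1 and 2; up to 0.0747).

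Of 8 tested genes that feed electrons to coenzyme Q by other routes, 1 rose and 0 fell in edgeR. Gpd2, the mitochondrial glycerol 3-phosphate dehydrogenase of the glycerophosphate shuttle, had 67.6, 85.7, 68.6 and 72.5 CPM in control and 113, 133, 132 and 128 CPM in knockout libraries. The lowest knockout library was well above the highest control (log2 fold change 0.78, SE 0.09, edgeR adjusted p = 0.00375), and the call held without any single library. Among 18 genes of mitochondrial import and content, 2 rose and 0 fell. Mdh2, the malate dehydrogenase of the citric acid cycle, went from 152 ± 13.7 to 219 ± 23.8 CPM (SD, n = 4; 0.53, SE 0.10, edgeR adjusted p = 0.0178, but 0.0510 and 0.0598 without knockout replicates 1 and 3). Tomm20, an import receptor, went from 35.6 ± 1.87 to 42.8 ± 1.82 CPM (0.27, SE 0.06, edgeR adjusted p = 0.0437, but 0.0512 with the replicate block and 0.0501 to 0.129 in all 8 fits that left out a library). For 13 genes of coenzyme Q synthesis, 6 tested carriers of ATP, ADP and phosphate and 16 biogenesis regulators, 0 passed the edgeR test, and medians were 0.00, 0.16 and −0.12.

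The 5 named regulators known to drive oxidative phosphorylation genes had overlapping groups. Among all 16 biogenesis regulators, 1 had knockout libraries all below the controls, as did 7.93% of all tested genes. The lowest value among the 16 was −0.47 (Tfb1m). Ppargc1a, the coactivator PGC-1α, had 12.2, 10.9, 14.6 and 8.59 CPM in control and 13.1, 15.6, 10.4 and 15.9 CPM in knockout libraries (0.25, SE 0.18, edgeR adjusted p = 0.462). Esrra, its nuclear receptor partner, had 0.31 (SE 0.10, adjusted p = 0.123 by edgeR), Nrf1 −0.15 (SE 0.08), Gabpa −0.14 (SE 0.08) and Tfam, the packaging factor of mitochondrial DNA, 0.10 (SE 0.07, and −0.01 under total counts). Promoter windows of 300 bases (RefSeq, GRCm38.p6) were found for 77 members, 74 of them tested, and were searched on both strands. The NRF-1 core GCATGCGC was in 17.6% of the 74 against 5.43% of 11675 tested genes with a window and 2.71% of all windows. The YY1 motif AAGATGGCG was in 10.8% against 3.15% of tested genes and 1.40% of all windows, and the ERR motif TCAAGGTCA in 2.70% against 0.360% and 0.423%. The GABP motif CCGGAAGT was in 6.76% against 8.28% and 3.89%, and the cAMP response element TGACGTCA in 6.76% against 3.32% and 1.79%. The 13 members with the NRF-1 core, Cycs among them, stood at a median of 0.08 (log2 fold change), and the tested members whose window lacks it at 0.03. Medians with and without the motif were 0.081 and 0.045 for the cAMP response element and 0.069 and 0.048 for YY1. They were 0.155 and 0.048 for ERR, which 2 members hold, and 0.045 and 0.048 for GABP. These differences were not tested. Ndufa11 holds the same 2 motifs as Cycs, the NRF-1 core and the cAMP response element, and did not pass (log2 fold change 0.08, edgeR adjusted p = 0.749). Uqcr11, with the NRF-1 core and the GABP motif, did not pass either (0.05, adjusted p = 0.881 by edgeR). The Cycs promoter is shown because it belongs to a gene that rose and holds 2 of these motifs. The stretch is 130 bases at chr6:50566620-50566749 on the minus strand, ending 51 bases before the RefSeq start. The cAMP response element and the NRF-1 core are in capitals.
Cycs promoter: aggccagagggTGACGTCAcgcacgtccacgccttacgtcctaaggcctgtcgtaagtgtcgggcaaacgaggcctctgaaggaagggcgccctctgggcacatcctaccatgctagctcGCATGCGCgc
The Cox7a2 window held none of the 5 motifs, which says only that these letters are not in that window.

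Ribosomal protein genes are short and abundant like the members and were read beside them in the same fit. Of 80 tested cytosolic ribosomal protein genes 0 rose and 20 fell in edgeR, against 1.88% of all tested genes lower, with a median of −0.30 (log2 fold change) and 79 of 80 values below 0. The count was 41 with the replicate block and 2 to 68 when 1 library was left out (2 without control replicate 1 or knockout replicate 3, 68 without control replicate 3), with 0 higher in each of these fits. The lowest adjusted p-values belonged to Rpsa, Rps2, Rpl12 and Rps4x, at −0.53, −0.46, −0.55 and −0.38. Of 77 mitochondrial ribosomal protein genes 1 rose (Mrpl53, 0.55, edgeR adjusted p = 0.0138) and 0 fell, with a median of −0.01. The differences between these lists and the members were not tested. Under the length correction 52 cytosolic ribosomal protein genes fell and 0 rose, and the members' 11 calls were all upward.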

How the data were processed

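For the 8 liver libraries the deposited file holds whole-number counts by gene symbol, and per the file headers a column of gene length in bases. The build, mm10, comes from the submitters' processing notes, while for the aligner, counter, annotation and strand setting the entry is: not given in the sources used here. Between 67.4% and 70.8% of values from 1 to 20 were even, as when both mates of a pair are counted. Library codes in the labels tied columns to samples.

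Genes were filtered with filterByExpr (14861 kept, 10378 left out), normalized with TMM and tested with edgeR 4.0.16 in R 4.3.3 (glmQLFit with robust estimation, glmQLFTest, Benjamini-Hochberg adjustment over all tested genes, threshold 0.05; biological coefficient of variation 0.204). An SE is the size of the log2 fold change over the root of its F statistic. The length correction used a lowess curve (span 0.3) of log2 CPM on log2 length in each library as an offset. The main fit and the length correction were run on simulated counts as a check that the code finds planted changes. The counts for the main fit held no length trend. That check therefore does not cover the shift with gene length seen in these libraries. Limma 3.58.1 and DESeq2 1.42.0 served as alternatives. Named genes are the members past the threshold, in each complex the lowest adjusted p in each direction and the 2 highest TPM values, a fixed set, all tissue isoforms, changed genes of the related lists and 5 regulators. Others with groups that do not overlap, or called with the length trend removed, were chosen after their values were seen. 1 gene that the rule names is not reported here. The members and lists were chosen with earlier results of these data known.

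Both groups carry replicate numbers 1 to 4. Deviations from the group means correlated between libraries of equal number (0.17, 0.39, 0.31 and 0.40 for numbers 1 to 4), so the replicate block is given where it changes a call. The labels do not say what a number marks. Positions and 3′ UTRs came from GENCODE M21, which matched 95 of the 97 members. Of these, 24 share exon bases with another gene of the table, 22 of them on the opposite strand, among them Atp5a1, Cox4i1, Ndufs1 and Uqcrc2, whose reads cannot be told apart from their partners'.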

Additional observations from a re-analysis of the deposited data

Results flagged for a closer look

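In groups of 4 libraries, 1 value stood far from the other 3 in 5 of 108 groups checked, and chance flags about 1 in 20. Sdha had 669.6 CPM in control library 4, below the other controls. The 8 assembly factors of complex I summed to 69.1 CPM in control library 3, below the other controls, which is the library where most members were lowest. Mdh2 had 131 CPM in the same library, also the lowest control. Tomm20 had 38.4 CPM in control library 1, above the other controls. Gabpa had 56.8 CPM in knockout library 4, below the other knockout libraries. No explanation was tested.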

How the results depend on the processing

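Calls and medians were refitted under 17 alternatives, 8 of them leaving out 1 library (the filter at 1 CPM removed Cox6b2, Cox7a1 and Ndufa4l2, and halving removed Cox6b2), summed levels under total counts and without the most abundant member, and their causes were not tested unless the setting itself shows them. The number of changed genes, all tested genes included, was 801, and 1730 under total counts (392 higher, 1338 lower), 1668 with DESeq2, 1434 with limma-voom and quality weights and 211 to 967 when a library was left out. Changed members numbered 2, and 4 under total counts (2 higher, 2 lower), 5 with DESeq2 (all higher), 6 with limma-voom (5 higher, Ndufaf7 lower), 11 with the length trend removed, 3 with the replicate block and 1 to 3 when a library was left out; DESeq2 called Sdhd, Ndufs1 and Atp5b besides Cycs and Cox7a2. Under total counts, DESeq2 and limma-voom the changed share of the members stayed below that of all tested genes, as in the main fit. DESeq2 tested more genes and more members than the main fit. With the length trend removed 12.4% of the members were higher, against 4.92% of all tested genes higher and 3.1% lower. Without control replicate 1 the members' share, from 2 genes, was also slightly above that of all tested genes. The medians of complexes I to V were above 0, and under total counts −0.079, −0.079, −0.028, −0.090 and −0.054. Without control replicate 3 they were −0.031, 0.012, −0.0039, −0.030 and −0.0071. The summed level of complex V moved from a ratio of 1.08 to 0.999 under total counts. Cox7a2 kept its direction and call in all 17 alternatives and Cycs in 15.

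For the assembly factors outside the symbol rule the count of 2 became 4 under total counts, 5 with DESeq2, 4 with limma-voom, 4 with the length trend removed and 0 to 3 without a library. For cytosolic ribosomal proteins the count of 20 became 66 under total counts, 46 with DESeq2, 65 with limma-voom, 41 with the replicate block, 52 with the length trend removed and 2 to 68 without a library. For mitochondrial ribosomal proteins 1 became 3 under total counts, 4 with DESeq2, 3 with limma-voom, 5 with the length trend removed and 1 to 3 without a library. Biogenesis regulators went from 0 to 1 under total counts, DESeq2 and limma-voom (0 to 1 without a library), coenzyme Q synthesis from 0 to 1 with the block, import and content from 2 to 1 without the count filter or with the block (0 to 1 without a library), and other electron donors from 1 to 3 under total counts and 2 with limma-voom.

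The block changed the calls of Sdhd and Tomm20 and no other call among the named genes. For 13 named genes with values near 0, called in no setting, the sign depended on the setting. Under total counts Atp5a1 was at −0.099, Cox4i1 at −0.095, Ndufa4 at −0.090, Ndufb9 at −0.11, Sdhb at −0.032, Tfam at −0.013, Uqcrb at −0.028 and Uqcrc2 at −0.0045. With limma-voom Cox4i1 was at −0.051, Ndufa4 at −0.042, Ndufb9 at −0.075, Sdha at 0.0031 and Uqcrb at −0.0094. With RLE size factors Cox5a was at 0.0074. With at least 1 CPM in at least 4 libraries Cox5a was at 0.0056. With DESeq2 Cox5a was at 0.0062. With the replicate block Cox5a was at 0.0083. With counts divided by 2 Cox5a was at 0.0021. With the length trend removed Cox5a was at 0.022, Ndufa4l2 at 0.0094, Ndufaf2 at 0.0027 and Sdha at 0.0011. With 1 library left out the values ran from −0.0084 to 0.047 for Atp5a1, −0.055 to 0.087 for Cox4i1, −0.092 to 0.096 for Cox5a, −0.042 to 0.12 for Ndufa4, −0.18 to 0.12 for Ndufa4l2, −0.083 to 0.051 for Ndufaf2, −0.083 to 0.10 for Ndufb9, −0.049 to 0.039 for Sdha, −0.0050 to 0.18 for Uqcrb and −0.087 to 0.024 for Uqcrc1.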
